A study of Mus musculus with 16 samples.

Results

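The kidney cortex of mice that had run for 1 week was compared with that of mice that had run for 1 day. The study's title speaks of pressure diuresis and of immune cells in the trained kidney, and genes of both are among those described. The comparison takes the 8 libraries of these groups out of 16 in the series, chosen by their labelled duration and not by any measured value. All mice were wild-type C57BL/6J males, and the kidneys carried no allele or drug beyond the training. Both groups were made to run on a treadmill for 40 minutes at 70% of capacity, 4 libraries over 1 week (1 wk) and 4 libraries labelled 24 h. A further 4 libraries came from mice trained for 2 weeks and 4 from sedentary mice, and these are used only to share the estimate of spread and as context. From the labels it is not clear whether mice of the 24 h group ran within 1 day or were killed 24 h after a single run, and how long after the last run the mice were killed is not given. Nothing in the labels ties each library to its own animal, and p-values therefore measure only the spread between these libraries, which may be technical. The sample titles of all exercised groups carry the same unexplained letter, so it does not separate 1 wk from 24 h.

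Running draws blood flow away from the kidney and raises sympathetic and hormonal signals to it, and the cortex answers in its blood vessels, its tubules and its resident immune cells. Cells under metabolic or protein-folding strain use a few well-known programmes. The integrated stress response slows general translation and, through the transcription factor ATF4, switches on genes for amino acid supply. The heat shock response raises chaperones of the cytosol, and the unfolded protein response raises those of the endoplasmic reticulum. All are quickly induced and decay once the strain has passed, so an early and a later time of training can be set side by side for each.

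Each library held 39766260 to 66852397 counts over the series, 40785799 to 49314783 in the 1 wk group and 39766260 to 50824795 in the 24 h group, and 20950 to 21897 genes had at least a count. The tissue carried the genes of cortex. Markers of the proximal tubule summed to 60279 to 75053 CPM (counts relative to the library total, scaled by TMM) in 1 wk libraries and 59560 to 67890 CPM in 24 h libraries, and podocyte markers to 229 to 273 CPM and 207 to 342 CPM in the same groups. The first principal component of the 8 libraries, with 26.5% of the variance, did not separate the groups, and 24 h replicate 3 and 1 wk replicate 4 lay at its ends.

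No gene passed an adjusted p of 0.05 between 1 wk and 24 h among the 16126 tested (0% called; edgeR quasi-likelihood test with Benjamini-Hochberg adjustment, as for every adjusted p below), and the smallest adjusted p was 0.216. At an unadjusted p under 0.05 there were 1153 genes (7.15% of those tested), against 806 expected if no gene differed. Of the 1153, 761 genes (4.72%) were lower at 1 wk and 392 genes (2.43%) were higher. The excess depended on 1 library. Without 24 h replicate 3 the count was 662 of 16319 genes, below the 806 expected over 16126. With the 8 libraries alone it was 912 of 15572 genes. Over all genes, 45.6% were lower at 1 wk, and 1.85% were lower and 1.07% higher with no overlap between the groups. The counts in each list below are to be read beside these shares. The median log2 fold change over all genes was 0.015, with quartiles of -0.094 and 0.11, and the median standard error was 0.14. DESeq2 called 59 genes on the same counts, 10 higher and 49 lower at 1 wk. Fold changes are therefore given as measured differences, and below "higher" and "lower" describe the means of the groups and not a test that was passed.

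**Figure D1:**
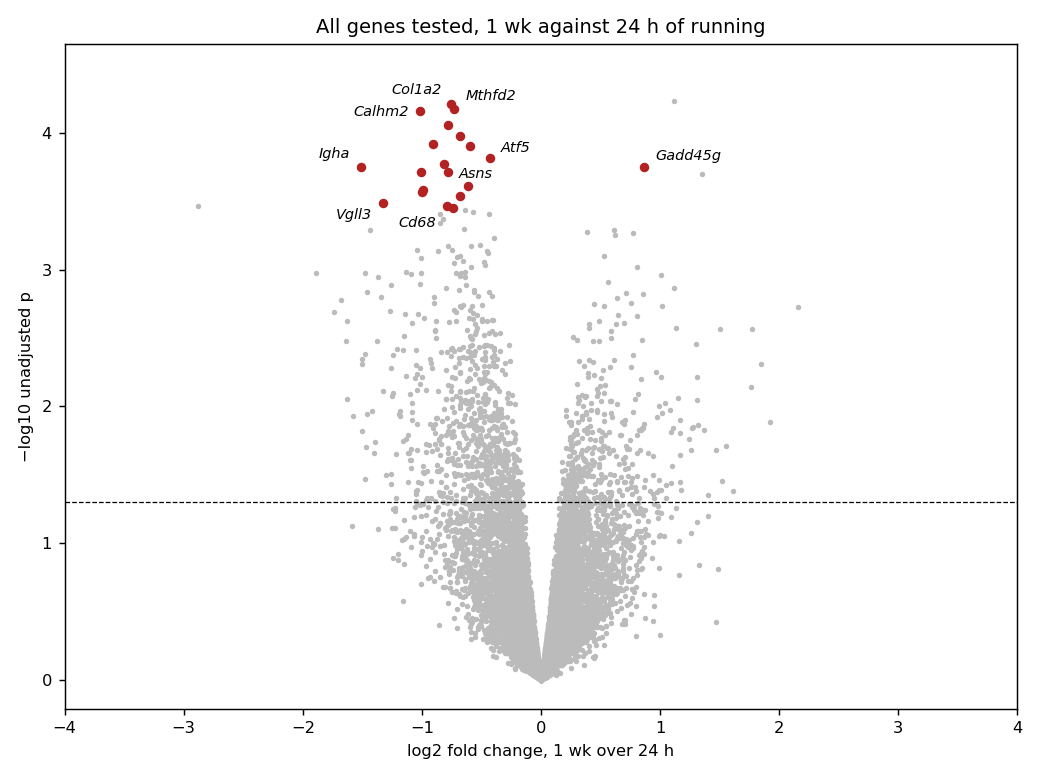
All 16126 genes tested, with the log2 fold change of 1 wk over 24 h on the horizontal axis and -log10 of the unadjusted edgeR p on the vertical axis. Red points are the 20 genes of smallest p that had a mean log2 CPM of 0 or more and no clone name, 19 lower and 1 higher at 1 wk, and the dashed line marks an unadjusted p of 0.05.

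Of the 20 named by smallest p among genes with a mean log2 CPM of 0 or more and a symbol that is no clone name, 19 were lower at 1 wk with no overlap between the groups, where 1.85% of all genes had such a pattern, and 1, Gadd45g, was higher. Since these genes were picked by this very contrast, that count is a description. Their edgeR adjusted p ran from 0.216 to 0.236. Col1a2, a chain of type I collagen, had 29.6, 26.2, 30.9 and 25.2 CPM in 1 wk libraries, against 51.7, 34.7, 57.8 and 44.3 CPM in 24 h libraries. Every 1 wk library lay below every 24 h library, and the log2 fold change was -0.75 ± 0.15 (SE, n = 4 each). Without 24 h replicate 2 its edgeR adjusted p was 0.0464. Fhl2, a LIM-domain protein of muscle and stromal cells, had 9.65, 9.31, 11.4 and 8.20 CPM in 1 wk libraries, against 16.5, 13.5, 19.3 and 12.4 CPM in 24 h libraries. F2r, the thrombin receptor, had 19.5, 19.4, 23.3 and 16.4 CPM in 1 wk libraries, against 36.0, 24.8, 50.3 and 26.7 CPM in 24 h libraries. Both genes kept the groups apart, and 24 h replicates 1 and 3 were the highest libraries in all 3 genes. Fblim1, a filamin-binding protein of cell adhesions, averaged 4.49 ± 0.236 CPM at 1 wk and 7.70 ± 2.08 CPM at 24 h (SD, n = 4 each). Col6a1, a chain of type VI collagen, averaged 9.98 ± 0.602 CPM at 1 wk and 15.9 ± 3.74 CPM at 24 h, and Itga9, an integrin subunit, averaged 7.11 ± 0.818 CPM at 1 wk and 10.7 ± 1.01 CPM at 24 h. Spn, the sialophorin of white blood cells, averaged 1.95 ± 0.281 CPM at 1 wk and 3.65 ± 0.823 CPM at 24 h. The remaining lower genes were Calhm2, Rerg, Dennd2a, Mmp17 (a membrane-bound matrix protease), Vgll3 (a cofactor of TEAD transcription factors) and Tmem119, with 24 h means of 1.51 to 10.7 CPM and log2 fold changes of -1.33 to -0.74, and the leukocyte and stress genes described below.

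**Figure D2:**
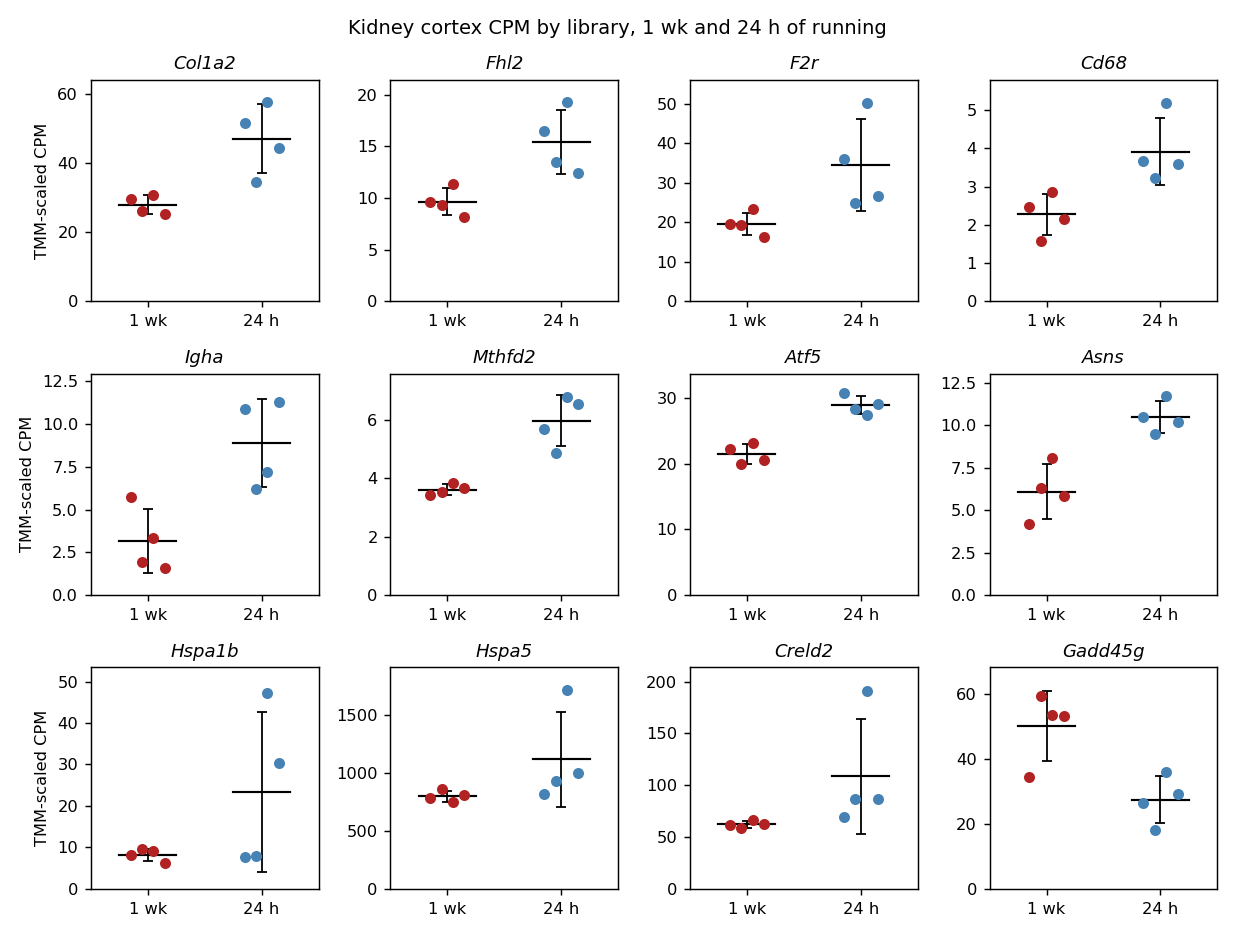
TMM-scaled CPM of 12 genes in each library, with 1 wk in red left of 24 h in blue, and with lines and bars for the mean and SD of 4 libraries. The groups do not overlap for the top row and for Igha, Mthfd2, Atf5, Asns and Creld2. Hspa1b is high in 2 and Hspa5 and Creld2 in 1 of the 24 h libraries, and Gadd45g is higher at 1 wk.

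Markers of the stroma and the vessels were lower at 1 wk as lists. In the fibroblast and matrix list 9 of 10 tested genes were lower at 1 wk, where 45.6% of all genes were. Of these, 7 had an unadjusted p under 0.05, where 4.72% of all genes were lower at that p. The list had a median log2 fold change of -0.64, where the median of all genes was 0.015. Col3a1, the fibrillar collagen of soft tissue, averaged 18.6 ± 6.15 CPM at 1 wk and 34.5 ± 12.2 CPM at 24 h, Col1a1 averaged 16.7 ± 3.06 CPM at 1 wk and 26.6 ± 5.54 CPM at 24 h, and Fn1, fibronectin, averaged 15.6 ± 1.33 CPM at 1 wk and 22.9 ± 3.62 CPM at 24 h (SD, n = 4 each). The list summed to 126 to 213 CPM at 1 wk and 175 to 357 CPM at 24 h. All 10 endothelial markers were lower at 1 wk, with a median of -0.34 and 8 under that p, though no marker kept the groups apart. Eng, a TGF-beta co-receptor of endothelium, averaged 87.9 ± 13.2 CPM at 1 wk and 114 ± 16.8 CPM at 24 h, and Plvap, which forms the diaphragms of fenestrated capillaries, averaged 133 ± 20.8 CPM at 1 wk and 175 ± 28.8 CPM at 24 h. Kdr, the main VEGF receptor, had 29.8, 23.7, 24.5 and 26.6 CPM in 1 wk libraries, against 37.6, 28.6, 41.4 and 24.5 CPM in 24 h libraries. For Kdr the 24 h replicates 1 and 3 were high, while 24 h replicates 2 and 4 lay within the 1 wk range. In bulk tissue fewer cells of a type and less RNA per cell cannot be told apart.

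Of the markers of smooth muscle, mesangium and renin cells, 7 of 9 were lower at 1 wk and 3 had an unadjusted p under 0.05 (Pdgfrb, the pericyte growth factor receptor, Des, desmin, and Tagln, a smooth muscle actin-binding protein). Over all genes 45.6% were lower, and 4.72% were lower at that p. Pdgfrb averaged 20.6 ± 3.74 CPM at 1 wk and 27.9 ± 3.01 CPM at 24 h, and its libraries did not overlap. Acta2, smooth muscle actin, averaged 21.4 ± 5.88 CPM at 1 wk and 30.1 ± 8.51 CPM at 24 h, with overlap. Ren1, renin, had 98.2, 90.5, 62.9 and 50.3 CPM in 1 wk libraries, against 155, 81.7, 129 and 71.4 CPM in 24 h libraries, and 24 h replicates 1 and 3 were again the highest. Its log2 fold change was -0.53 ± 0.30, with an edgeR adjusted p of 0.792. Among podocyte markers 7 of 8 were lower at 1 wk, with a median of -0.14, and Tcf21, a transcription factor of podocytes and stroma, alone had an unadjusted p under 0.05, at 12.7 ± 3.27 CPM at 1 wk and 18.4 ± 3.63 CPM at 24 h. These lists moved together among the 24 h libraries. Relative to the 24 h mean, the mean log2 CPM of the fibroblast list was 0.12, -0.50, 0.44 and -0.065 in 24 h replicates 1 to 4 and -0.77, -0.45, -0.18 and -0.91 in 1 wk replicates 1 to 4. The podocyte list ran from -0.47 in 24 h replicate 2 to 0.37 in 24 h replicate 1, a range that held every 1 wk value. Podocyte and stromal markers were thus high in the same 24 h replicates, 1 and 3, and the part this had in the results was not tested. Without 24 h replicate 3 the endothelial list kept a median of -0.23 with 2 of 10 genes under that p, and the fibroblast list a median of -0.53 with 6 of 10. The endothelial count was also 2 without 1 wk replicate 2, and with any 1 library left out it ran up to 9. The smooth muscle list had 1 gene under that p without 24 h replicate 3, without 1 wk replicate 2 or without 1 wk replicate 4. The podocyte median was -0.27 without 24 h replicate 2, -0.054 without 24 h replicate 1 and -0.045 without 24 h replicate 3.

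**Figure D3:**
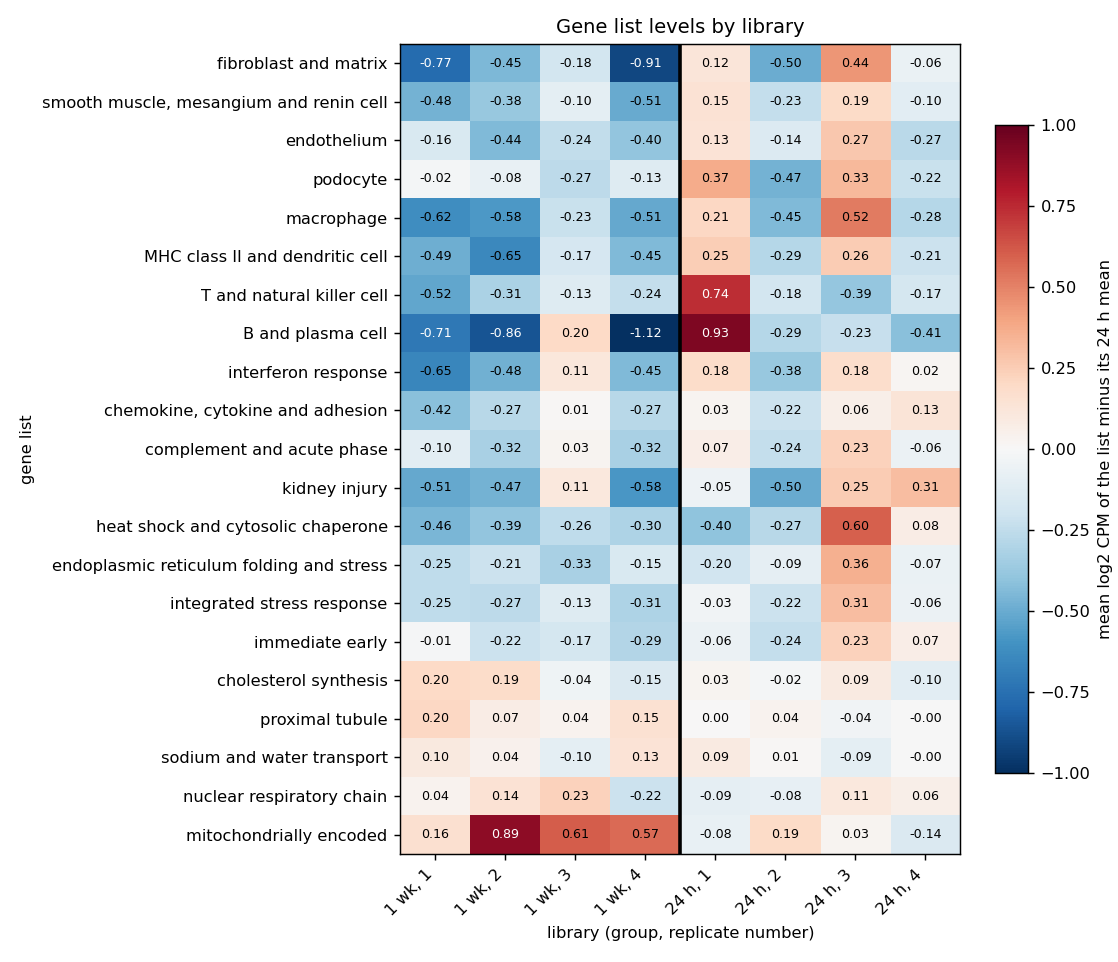
Mean log2 CPM of each gene list in each of the 8 libraries, minus the list's mean over the 4 libraries at 24 h, with 1 wk libraries to the left of the black line and 24 h libraries to the right. The fibroblast list lies between -0.91 and -0.18 in 1 wk libraries and between -0.50 and 0.44 in 24 h libraries, and 24 h replicate 3 is the highest library for heat shock at 0.60.

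Macrophage and antigen presentation genes were lower at 1 wk as well. Of 11 macrophage markers tested, 10 were lower, where 45.6% of all genes were, with a median log2 fold change of -0.57. At an unadjusted p under 0.05, 9 were lower, where 4.72% of all genes were. Cd68, a lysosomal protein of macrophages, had 2.48, 1.59, 2.86 and 2.16 CPM in 1 wk libraries, against 3.66, 3.22, 5.19 and 3.59 CPM in 24 h libraries. No 1 wk library reached the lowest 24 h library for Cd68, a pattern that 1.85% of all genes had. Adgre1, which encodes F4/80, had 1.77, 2.20, 3.42 and 2.44 CPM in 1 wk libraries, against 5.12, 2.73, 6.21 and 2.39 CPM in 24 h libraries. Here too 24 h replicates 2 and 4 lay within the 1 wk range, while 24 h replicates 1 and 3 were high. Mrc1, the mannose receptor of resident macrophages, averaged 0.904 ± 0.116 CPM at 1 wk and 1.67 ± 0.654 CPM at 24 h, C1qc, part of complement C1q, averaged 10.6 ± 2.48 CPM at 1 wk and 15.7 ± 5.17 CPM at 24 h, and Mgl2, a galactose lectin of macrophages and dendritic cells, averaged 2.24 ± 0.338 CPM at 1 wk and 3.43 ± 0.342 CPM at 24 h. Without 24 h replicate 3 the macrophage median was -0.36 and 2 of 11 markers had an unadjusted p under 0.05, and 5 had one without 24 h replicate 1 or 1 wk replicate 2. Of 13 genes of MHC class II and dendritic cells, 12 were lower at 1 wk and 7 had an unadjusted p under 0.05, with a median of -0.44 that was -0.35 without that library. Cd209a, a lectin of dendritic cells, averaged 0.795 ± 0.226 CPM at 1 wk and 1.62 ± 0.289 CPM at 24 h with no overlap, and Ctss, the protease that trims the invariant chain, averaged 7.26 ± 1.79 CPM at 1 wk and 13.5 ± 6.42 CPM at 24 h. H2-Aa, a class II chain, had 62.0, 59.4, 93.9 and 62.4 CPM in 1 wk libraries, against 120, 72.9, 139 and 82.0 CPM in 24 h libraries. H2-Eb1, a chain of another class II molecule, had 73.6, 67.1, 117 and 70.6 CPM in 1 wk libraries, against 137, 91.2, 159 and 103 CPM in 24 h libraries. In both class II genes 1 wk replicate 3 stood above its group and 24 h replicate 2 was the lowest of its group.

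Lymphocyte genes were scarce, and their list medians rested largely on 1 library. Of 12 T and natural killer cell genes tested, 10 were lower at 1 wk, where 45.6% of all genes were, with a median of -0.45. At an unadjusted p under 0.05, 3 were lower, where 4.72% of all genes were. Cd3e, part of the T cell receptor complex, had 0.111, 0.185, 0.255 and 0.222 CPM in 1 wk libraries, against 0.710, 0.347, 0.239 and 0.559 CPM in 24 h libraries. Nkg7, a granule protein of cytotoxic cells, had 0.200, 0.288, 0.613 and 0.403 CPM in 1 wk libraries, against 1.06, 0.471, 0.500 and 0.624 CPM in 24 h libraries, and Lck, the kinase of T cell receptor signalling, averaged 0.794 ± 0.203 CPM at 1 wk and 1.22 ± 0.477 CPM at 24 h. Cd3e and Nkg7 were highest in 24 h replicate 1. Without 24 h replicate 1 the median of the list was -0.033, over 13 genes tested, with 1 gene lower under an unadjusted p of 0.05. Of 11 B and plasma cell genes, 8 were lower at 1 wk and 2, Igha and Jchain, had an unadjusted p under 0.05. Igha, the constant region of IgA heavy chains, had 5.72, 1.96, 3.32 and 1.57 CPM in 1 wk libraries, against 10.9, 6.22, 7.19 and 11.3 CPM in 24 h libraries. Its groups did not overlap, with a log2 fold change of -1.51 ± 0.32, the steepest of the 20. Jchain, which joins IgA and IgM into polymers, had 0.666, 0.742, 2.45 and 0.464 CPM in 1 wk libraries, against 8.03, 1.29, 1.69 and 1.55 CPM in 24 h libraries. Igkc, the kappa light chain constant region, had 5.06, 4.45, 20.3 and 2.58 CPM in 1 wk libraries, against 40.5, 6.47, 13.9 and 9.14 CPM in 24 h libraries. For Jchain and Igkc 24 h replicate 1 was far above its group and 1 wk replicate 3 far above the other 1 wk libraries. The median of the list was -0.41 and, without 24 h replicate 1, -0.0031, and 5 genes had an unadjusted p under 0.05 without 1 wk replicate 3. The labels do not give how reads shared among immunoglobulin genes were counted, so these levels are uncertain.

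Inflammatory programmes were lower at 1 wk in list medians, with few genes at a small p. All 25 interferon response genes were lower, where 45.6% of all genes were, with a median of -0.34. Of these, 5 had an unadjusted p under 0.05, where 4.72% of all genes were lower at that p. Ifit1, an antiviral protein that binds foreign RNA, had 1.31, 1.61, 2.17 and 1.96 CPM in 1 wk libraries, against 2.75, 1.74, 3.71 and 2.73 CPM in 24 h libraries. Oasl2, a relative of the oligoadenylate synthetases, averaged 3.46 ± 0.605 CPM at 1 wk and 5.53 ± 1.47 CPM at 24 h, and Bst2, which tethers virions to the cell surface, averaged 11 ± 3.58 CPM at 1 wk and 15.5 ± 3.92 CPM at 24 h. Ifit1 overlapped through 24 h replicate 2, and Oasl2 overlapped narrowly. The count under that p was 15 without 1 wk replicate 3, which was the highest 1 wk library for the list, 13 without 24 h replicate 2 and 1 without 24 h replicate 3. Of 14 chemokine, cytokine and adhesion genes, 12 were lower and 6 had an unadjusted p under 0.05, or 3 without 1 wk replicate 1 or 24 h replicate 3. Tgfb1, the fibrogenic cytokine, averaged 12.3 ± 1.55 CPM at 1 wk and 16 ± 1.49 CPM at 24 h, Csf1, the growth factor of macrophages, averaged 5.10 ± 0.692 CPM at 1 wk and 7.07 ± 1.28 CPM at 24 h, and Vcam1, an adhesion molecule of activated endothelium and injured tubule, averaged 5.65 ± 1.03 CPM at 1 wk and 8.41 ± 2.29 CPM at 24 h. Il1b, an inflammatory cytokine, averaged 0.770 ± 0.0932 CPM at 1 wk and 1.17 ± 0.512 CPM at 24 h. Of 9 complement and acute phase genes, 6 were lower and 4 had an unadjusted p under 0.05, among them Serping1, the C1 inhibitor, C3, the central component, and C1s1, a C1 protease. Serping1 averaged 38.2 ± 9.10 CPM at 1 wk and 56.0 ± 15 CPM at 24 h, and C3 averaged 13.4 ± 1.66 CPM at 1 wk and 18.8 ± 5.96 CPM at 24 h. The count of 4 was 2 without 1 wk replicate 4, 24 h replicate 1 or 24 h replicate 3.

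Genes of tubular injury were uneven between libraries. In that list 15 of 17 were lower at 1 wk, where 45.6% of all genes were, with a median of -0.34. Of these, 3, Fgb, Cd44 and Vcam1, had an unadjusted p under 0.05, where 4.72% of all genes were lower at that p. That count was 9 without 1 wk replicate 3 or 24 h replicate 2 and 1 without 24 h replicate 3, where the median was -0.23. Havcr1, which encodes the injury marker KIM-1, had 2.15, 3.30, 10.7 and 3.12 CPM in 1 wk libraries, against 6.13, 3.42, 6.97 and 25.9 CPM in 24 h libraries. A single library stood out in each group, and the log2 fold change of -1.15 ± 0.64 was -0.21 without 24 h replicate 4. Lcn2, the injury lipocalin, had 2.13, 2.04, 5.31 and 1.27 CPM in 1 wk libraries, against 2.95, 1.93, 4.67 and 6.60 CPM in 24 h libraries, with overlap. Fgb, a fibrinogen chain, had 1.18, 1.24, 1.48 and 0.766 CPM in 1 wk libraries, against 4.60, 0.868, 3.78 and 1.05 CPM in 24 h libraries, high in 24 h replicates 1 and 3 and near the 1 wk level in the others. Cd44, the hyaluronan receptor, averaged 0.742 ± 0.213 CPM at 1 wk and 1.35 ± 0.411 CPM at 24 h, and Cdkn1a, the cell cycle inhibitor p21, averaged 5.27 ± 0.975 CPM at 1 wk and 7.21 ± 2.90 CPM at 24 h.

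**Figure D4:**
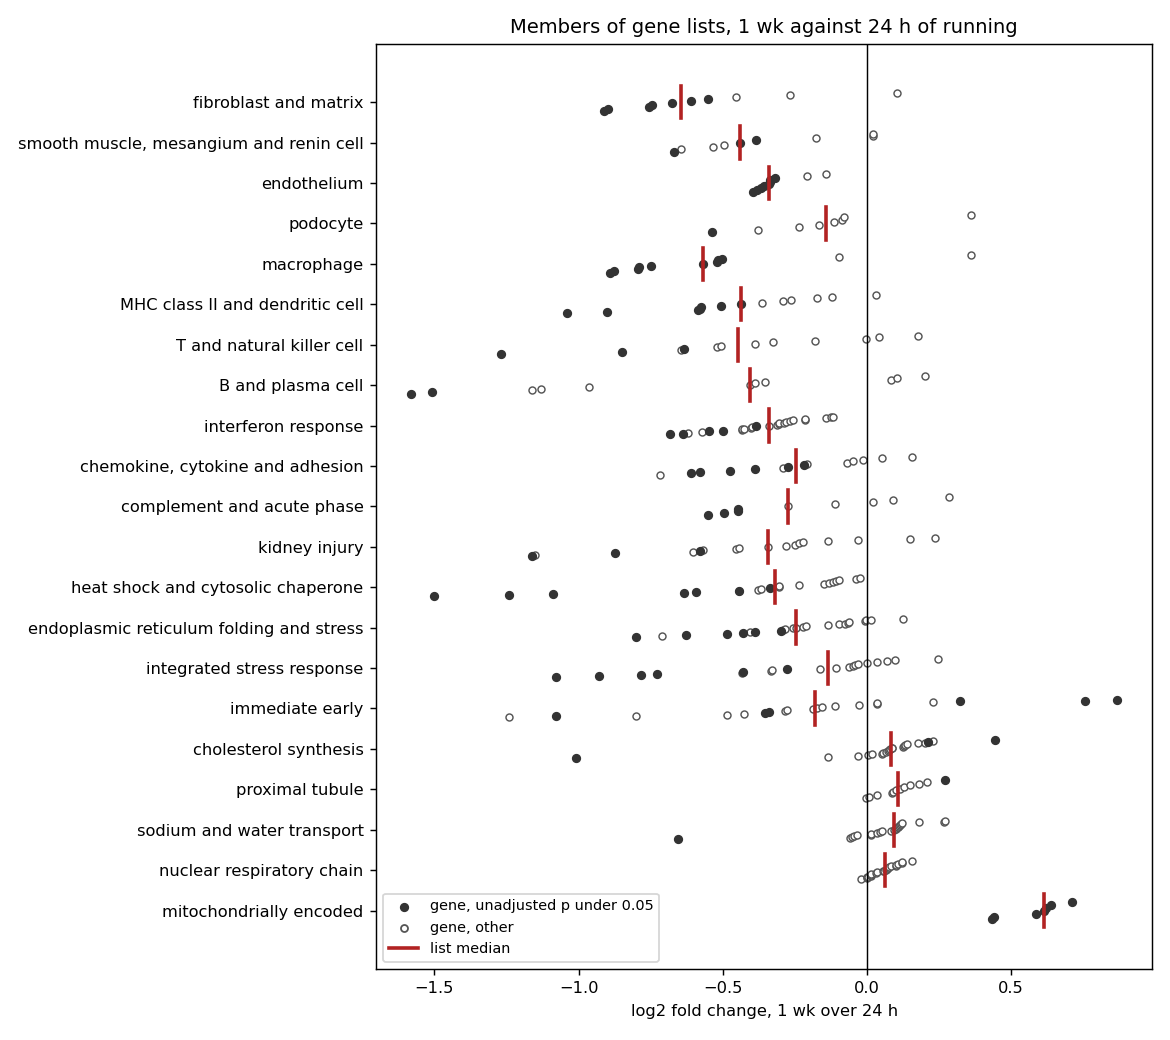
Log2 fold change of 1 wk over 24 h for each tested member of 21 gene lists, filled where the unadjusted edgeR p was under 0.05 and open otherwise, with the list median as a red bar. All 10 endothelial, 25 interferon and 20 heat shock genes lie below 0, and all 7 mitochondrially encoded genes lie above 0.

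A few genes of amino acid and one-carbon metabolism, targets of the integrated stress response, were lower at 1 wk. Of 20 genes of that list tested, 15 were lower, where 45.6% of all genes were, with a median of -0.13. At an unadjusted p under 0.05, 6 were lower, where 4.72% of all genes were. Asns, the enzyme that makes asparagine, had 4.19, 6.30, 8.07 and 5.83 CPM in 1 wk libraries, against 10.5, 9.47, 11.7 and 10.2 CPM in 24 h libraries. Mthfd2, the mitochondrial enzyme of one-carbon folate metabolism, had 3.42, 3.52, 3.85 and 3.67 CPM in 1 wk libraries, against 5.70, 4.86, 6.80 and 6.56 CPM in 24 h libraries. Atf5, a transcription factor that is translated when the response is active, had 22.3, 19.9, 23.2 and 20.5 CPM in 1 wk libraries, against 30.7, 28.3, 27.5 and 29.1 CPM in 24 h libraries. The groups were apart for each of the 3, with log2 fold changes of -0.78 ± 0.17, -0.73 ± 0.14 and -0.43 ± 0.091 (SE, n = 4 each). The SDs of their 1 wk libraries were 1.59, 0.190 and 1.55 CPM, the widest relative to its mean for Asns. Phgdh, the first enzyme of serine synthesis, had 7.54, 8.86, 11.8 and 8.14 CPM in 1 wk libraries, against 18.7, 9.20, 28.8 and 12.3 CPM in 24 h libraries, so that 24 h replicates 1 and 3 made most of its difference. Atf3, an early transcription factor of stress, averaged 1.04 ± 0.421 CPM at 1 wk and 2.18 ± 1.48 CPM at 24 h. Other genes of the list were not lower: 5 lay above 0. Without 24 h replicate 3 the median of the list was -0.037 with 4 genes under that p, and without 1 wk replicate 1 it was -0.22. Among 20 aminoacyl-tRNA synthetases, which load amino acids onto their tRNAs, 13 were lower with a median of -0.047, or -0.017 without 24 h replicate 3, and 2, Yars and Cars, had an unadjusted p under 0.05. Yars averaged 48.1 ± 2.49 CPM at 1 wk and 59.2 ± 6.77 CPM at 24 h, and Cars averaged 23.3 ± 0.786 CPM at 1 wk and 28.2 ± 3.45 CPM at 24 h, with no overlap for either.

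The upstream sequences of Asns and Atf3 are shown because both genes were among the 6 of smallest p in the list and hold the letters of the element on which ATF4 and its C/EBP partners are known to act. The letters TGATGNAA were searched on both strands in RefSeq windows of the GRCm38.p6 assembly, 250 bases before to 50 after each gene start. They were found in 3.97% of 32817 windows and in those of 8 of the 21 list genes with a window, Atf3, Asns, Trib3, Chac1, Slc7a11, Vldlr, Fgf21 and Nupr1. A gene counted if any of its windows held the letters. The share of windows and the count of genes are thus in unlike units. The list was also drawn from genes known for the response, and no test compared the shares. The 250 bases before each start are printed 5′ to 3′ on the gene's strand, with the match in capitals, at chr6:7693210-7693459, minus strand, for Asns and chr1:191183334-191183583, minus strand, for Atf3. In Atf3 the match is on the opposite strand.
Asns: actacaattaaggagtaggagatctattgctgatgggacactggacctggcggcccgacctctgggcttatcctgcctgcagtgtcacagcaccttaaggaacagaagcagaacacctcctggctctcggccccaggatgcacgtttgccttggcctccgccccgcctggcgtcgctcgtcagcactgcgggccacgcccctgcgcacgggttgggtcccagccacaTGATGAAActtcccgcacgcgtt
Atf3: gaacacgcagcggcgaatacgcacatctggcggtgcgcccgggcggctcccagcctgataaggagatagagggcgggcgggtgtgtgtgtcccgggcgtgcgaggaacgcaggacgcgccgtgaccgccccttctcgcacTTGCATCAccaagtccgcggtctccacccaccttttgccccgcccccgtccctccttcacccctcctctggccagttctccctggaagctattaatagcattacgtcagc
The Asns match ends 16 bases and the Atf3 match 103 bases before the start. The windows of Mthfd2 and Atf5 do not hold TGATGNAA. A match is a description of the sequence only. Genes with the match included Atf3 at -1.08, Asns at -0.78 and Vldlr at 0.069, which was -0.044 without 1 wk replicate 4.

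Heat shock genes were lower at 1 wk in the means and high in 1 or 2 libraries of the 24 h group. All 20 genes of the list were lower at 1 wk, where 45.6% of all genes were, with a median of -0.32. Of these, 7 had an unadjusted p under 0.05, where 4.72% of all genes were lower at that p. Hspa1b, an inducible HSP70, had 8.14, 9.56, 9.06 and 6.19 CPM in 1 wk libraries, against 7.60, 7.93, 47.3 and 30.4 CPM in 24 h libraries. Hspa1a, its near-identical neighbour, had 6.28, 6.24, 5.0 and 5.24 CPM in 1 wk libraries, against 5.51, 4.64, 27.6 and 16.2 CPM in 24 h libraries. For both genes 24 h replicates 3 and 4 were high and 24 h replicates 1 and 2 lay near the 1 wk level, and their levels are uncertain because reads matching both copies may have been split or dropped in counting. Dnajb1, an HSP40 partner of HSP70, had 41.0, 40.2, 42.8 and 35.1 CPM in 1 wk libraries, against 41.6, 45.7, 84.7 and 68.0 CPM in 24 h libraries, and Bag3, a co-chaperone, averaged 32.6 ± 2.87 CPM at 1 wk and 41.1 ± 5.37 CPM at 24 h. Hsph1, an HSP110 that recharges HSP70, was chosen after its values were seen and had 116, 108, 125 and 161 CPM in 1 wk libraries, against 135, 149, 310 and 196 CPM in 24 h libraries. The mean log2 CPM of the list, relative to the 24 h mean, was -0.40, -0.27, 0.60 and 0.075 in 24 h replicates 1 to 4, against -0.46, -0.39, -0.26 and -0.30 in 1 wk replicates 1 to 4. Without 24 h replicate 3 the median was -0.092, 16 of 20 genes were lower and 3 had an unadjusted p under 0.05, and without 24 h replicate 1 that count was 11.

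Chaperones of the endoplasmic reticulum followed the same library. Of 23 genes, 21 were lower at 1 wk, where 45.6% of all genes were, with a median of -0.25. At an unadjusted p under 0.05, 6 were lower, where 4.72% of all genes were. Without 24 h replicate 3 no gene of the list was under that p and the median was -0.11. Hspa5, the master chaperone BiP, had 779, 859, 744 and 805 CPM in 1 wk libraries, against 816, 932, 1716 and 999 CPM in 24 h libraries. Creld2, a disulfide isomerase-like protein, had 61.5, 58.5, 66.4 and 62.7 CPM in 1 wk libraries, against 69.2, 86.8, 191 and 87.2 CPM in 24 h libraries. Manf, a secreted stress protein, averaged 97.0 ± 8.88 CPM at 1 wk and 150 ± 68.3 CPM at 24 h, and Pdia4, a disulfide isomerase, averaged 145 ± 13.4 CPM at 1 wk and 190 ± 43.5 CPM at 24 h. For Hspa5 the log2 fold change of -0.49 ± 0.20 became -0.20 without that library, and for Creld2 -0.80 ± 0.27 became -0.38. The other 24 h libraries of Creld2, at 69.2 to 87.2 CPM, still lay above all 1 wk libraries.

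The heat shock element and the endoplasmic reticulum stress element can be read in these genes, and both are shown because the lists were highest in the same 24 h library. The heat shock element searched, GAA, TTC and GAA with 2 bases between neighbours, was in 0.603% of all windows and in 4 of the 15 list genes with a window, Hsph1, Hspd1, Hspe1 and Chordc1, searched on both strands. The stress element searched, CCAAT and CCACG with 9 bases between them, was in 0.119% of windows and in 8 of 20 genes of the reticulum list, Hspa5, Hsp90b1, Calr, Canx, Pdia6, Creld2, Dnajc3 and Syvn1. For both elements a gene counted if any of its windows held a match, so shares of windows and counts of genes are in unlike units. Both lists were drawn from genes known for these responses, and no test compared the shares. Shown are the 250 bases before the start of Hspa5 (chr2:34771840-34772089, plus strand) and of Creld2 (chr15:88819396-88819645, plus strand), and for Hsph1 a stretch of 30 bases after the start (chr5:149636287-149636316, minus strand), with each match in capitals. The matches of Creld2 and Hsph1 are on the strand opposite to the gene.
Hspa5: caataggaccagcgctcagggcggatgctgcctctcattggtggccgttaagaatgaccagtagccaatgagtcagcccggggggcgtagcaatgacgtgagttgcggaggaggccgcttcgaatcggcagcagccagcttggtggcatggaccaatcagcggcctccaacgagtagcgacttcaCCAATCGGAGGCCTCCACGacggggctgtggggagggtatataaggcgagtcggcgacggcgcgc
Creld2: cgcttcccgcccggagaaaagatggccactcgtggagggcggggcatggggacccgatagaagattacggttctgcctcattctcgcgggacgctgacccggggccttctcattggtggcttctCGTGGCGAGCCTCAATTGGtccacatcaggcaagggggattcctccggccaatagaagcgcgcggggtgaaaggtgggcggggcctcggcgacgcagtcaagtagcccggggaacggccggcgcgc
Hsph1: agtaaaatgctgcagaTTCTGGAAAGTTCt
The Hspa5 match lies 65 to 47 bases and the Creld2 match 126 to 108 bases before the start, and the Hsph1 match 37 to 49 bases after it. The window of Hspa1b does not hold the heat shock element as searched. Members with a match ranged from -0.80 for Creld2 to -0.060 for Dnajc3 in the reticulum list, and Dnajc3 was at 0.018 without 24 h replicate 3.

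Immediate early genes, which are induced within minutes of a stimulus, were divided. Of 20 tested, 14 were lower at 1 wk and 6 higher, with 3 under an unadjusted p of 0.05 each way. Over all genes 4.72% were lower and 2.43% higher at that p. Of the lower genes 1 was under that p without 24 h replicate 3, against 6 without 24 h replicate 2 or 1 wk replicate 1. Gadd45g, a growth arrest and DNA damage protein, had 34.5, 59.4, 53.6 and 53.2 CPM in 1 wk libraries, against 26.5, 18.2, 35.9 and 29.3 CPM in 24 h libraries. It was the single gene higher at 1 wk among the 20 named by smallest p, at 0.87 ± 0.19, and the groups met only through 1 wk replicate 1, below the highest 24 h library. Myc, the growth transcription factor, had 4.26, 9.44, 10.3 and 12.8 CPM in 1 wk libraries, against 4.26, 4.59, 6.69 and 6.26 CPM in 24 h libraries, with 1 wk replicate 1 again at the 24 h level. Btg2, an anti-proliferative gene, averaged 9.18 ± 0.869 CPM at 1 wk and 11.7 ± 1.97 CPM at 24 h.

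Transcripts of the mitochondrial genome, which encodes core subunits of the respiratory chain, were higher at 1 wk. Of its 13 protein genes 7 passed the filter on low counts, and mt-Atp6, mt-Atp8 and mt-Nd4l had no counts in any of the 8 libraries. Why they had none was not tested. Mitochondrial shares of counts given here cover only counts assigned to genes of this genome, so they may understate its transcripts. The 7 tested genes were all higher, each with an unadjusted p under 0.05 (2.43% of all genes were higher at that p), with a median log2 fold change of 0.61, and 3 of them kept the groups apart, as 1.07% of all genes did in that direction. The tested genes are read from 1 small circular molecule, so they are not independent. mt-Cytb, the cytochrome b of complex III, had 7972, 12799, 11323 and 8929 CPM in 1 wk libraries, against 6502, 7241, 6841 and 6060 CPM in 24 h libraries. mt-Nd2, a subunit of complex I, had 1791, 3147, 2581 and 2673 CPM in 1 wk libraries, against 1640, 1912, 1731 and 1377 CPM in 24 h libraries, and mt-Nd5, of the same complex, averaged 2194 ± 666 CPM at 1 wk and 1338 ± 290 CPM at 24 h. For mt-Cytb every 1 wk library was above every 24 h library, and for mt-Nd2 1 wk replicate 1 lay within the 24 h range. The edgeR adjusted p was 0.259 for mt-Cytb and 0.258 for mt-Nd2. Mitochondrial transcripts took 2.66%, 4.09%, 3.49% and 3.36% of the counts at 1 wk, against 2.46%, 2.71%, 2.54% and 2.16% at 24 h. The difference of the means, 3.40% ± 0.588 at 1 wk and 2.47% ± 0.228 at 24 h (SD, n = 4 each), was 0.935 percentage points, with a two-sided exact permutation p of 0.0571 where 4 against 4 libraries cannot go below 0.0286. Leaving out single libraries gave an exact p of 0.0286 without 1 wk replicate 1, of 0.0857 without 24 h replicates 1, 3 or 4, and of 0.0571 without any of the others. The respiratory chain genes of the nucleus had a median of 0.063, with 20 of 22 higher and none under an unadjusted p of 0.05, but without 1 wk replicate 3 the median was -0.015 and 10 of 22 were higher. Ndufa4, a subunit of the chain, averaged 815 ± 208 CPM at 1 wk and 730 ± 87.0 CPM at 24 h.

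Tubule genes differed little between the groups. Of 12 proximal tubule markers, 11 were higher at 1 wk with a median of 0.11, where 54.4% of all genes were higher, and 1, Slc13a3, the sodium-dicarboxylate carrier, had an unadjusted p under 0.05. Slc13a3 had 1282, 1212, 1155 and 1241 CPM in 1 wk libraries, against 834, 1188, 917 and 1118 CPM in 24 h libraries. Kap, the androgen-regulated protein that is among the most abundant messages of the male mouse kidney, averaged 39043 ± 7026 CPM at 1 wk and 34436 ± 3581 CPM at 24 h. Of 23 sodium and water transport genes, 18 were higher and 1 lower gene, Sgk1, had an unadjusted p under 0.05, where 4.72% of all genes were lower at that p. No gene of the list was lower at that p without 1 wk replicate 2, 1 wk replicate 4, 24 h replicate 1 or 24 h replicate 3. Sgk1, the hormone-induced kinase that raises sodium transport, averaged 33.8 ± 9.67 CPM at 1 wk and 53.1 ± 19.1 CPM at 24 h, with an unadjusted p of 0.0401 and an edgeR adjusted p of 0.663. Slc12a3, the thiazide-sensitive cotransporter, had 450, 554, 416 and 572 CPM in 1 wk libraries, against 555, 469, 405 and 403 CPM in 24 h libraries, with overlap. Slc9a3, the sodium-hydrogen exchanger of the proximal tubule, had 80.7, 82.7, 73.8 and 135 CPM in 1 wk libraries, against 74.0, 89.2, 68.3 and 76.4 CPM in 24 h libraries, where 1 wk replicate 4 alone was high. The list medians of the thick ascending limb (0.030), the distal convoluted and connecting tubule (0.092), principal cells (0.11) and intercalated cells (0.071) were within 0.11 of 0. With single libraries left out the medians of these lists and of the proximal tubule ran from -0.070 to 0.18. Among the intercalated cell genes Aqp6, a water channel of acid-secreting cells, averaged 44.3 ± 5.90 CPM at 1 wk and 58.1 ± 21.9 CPM at 24 h. Of 20 genes that raise or lower blood pressure, 10 were lower, with a median of 0.0022, where 45.6% of all genes were lower. Of these, 2, Npr1 and Ednrb, had an unadjusted p under 0.05, where 4.72% of all genes were lower at that p. With single libraries left out that count ran from 1 to 4, and the median changed sign in 6 of these fits. Npr1, the receptor of atrial natriuretic peptide, averaged 17.1 ± 1.19 CPM at 1 wk and 20.8 ± 2.40 CPM at 24 h. It had no overlap, as had 1.85% of all genes in that direction. Ednrb, the endothelin B receptor, averaged 5.02 ± 0.539 CPM at 1 wk and 6.61 ± 1.29 CPM at 24 h, with a narrow overlap.

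Metabolic lists had medians of -0.040 to 0.14. In the fatty acid synthesis list 10 of 12 genes were higher at 1 wk with a median of 0.14 and none under an unadjusted p of 0.05, or 5 without 1 wk replicate 3. In the cholesterol synthesis list 19 of 22 genes were higher with a median of 0.083, which was 0.031 without 1 wk replicate 1, among them Insig1, the sterol sensor that retains SREBP, at 56.4 ± 14.6 CPM at 1 wk and 41.4 ± 4.00 CPM at 24 h, and Nsdhl, an enzyme late in the pathway, at 71.1 ± 4.10 CPM at 1 wk and 61.4 ± 4.08 CPM at 24 h. Srebf1, the lipogenic transcription factor, averaged 72.3 ± 14.3 CPM at 1 wk and 60.6 ± 8.19 CPM at 24 h. The fatty acid oxidation list had a median of -0.040 with no gene under an unadjusted p of 0.05, and the median was 0.020 without 24 h replicate 3. G6pc, the last enzyme of gluconeogenesis, averaged 468 ± 47.5 CPM at 1 wk and 380 ± 88.5 CPM at 24 h, and Slco1a6, an organic anion carrier, averaged 199 ± 14.2 CPM at 1 wk and 171 ± 9.80 CPM at 24 h with no overlap. Hmox1, the haem oxygenase of the NRF2 response, had 42.5, 46.7, 58.9 and 51.1 CPM in 1 wk libraries, against 56.9, 60.4, 81.7 and 62.4 CPM in 24 h libraries. In the NRF2 and glutathione list 10 of 19 genes were higher at 1 wk, with a median of 0.0078 and 1 lower gene under an unadjusted p of 0.05. Egln3, a hypoxia-induced prolyl hydroxylase, averaged 18.6 ± 2.34 CPM at 1 wk and 13.6 ± 4.34 CPM at 24 h.

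The other 2 groups place the difference in the course of training, as a description with no test. Over sedentary, 24 h, 1 wk and 2 wk libraries, mitochondrial transcripts took 3.91% ± 0.412, 2.47% ± 0.228, 3.40% ± 0.588 and 3.73% ± 0.540 of the counts (SD, n = 4 each), so that 24 h was the lowest group. Col1a2 averaged 33.8 ± 4.63 CPM in sedentary mice, 47.1 ± 9.95 at 24 h, 28.0 ± 2.70 at 1 wk and 32.4 ± 5.23 at 2 wk. Asns averaged 5.06 ± 0.909 CPM in sedentary mice, 10.5 ± 0.931 at 24 h, 6.10 ± 1.59 at 1 wk and 4.22 ± 0.629 at 2 wk. For both genes 24 h was the highest group, and for Asns sedentary, 1 wk and 2 wk libraries overlapped. Gadd45g averaged 23.8 ± 1.5 CPM in sedentary mice, 27.5 ± 7.34 at 24 h, 50.2 ± 10.8 at 1 wk and 25.2 ± 5.90 at 2 wk, so that here 1 wk had the highest mean. Among the 20 genes of smallest p the sedentary mean lay between the 1 wk and 24 h means in 17 and below both in 3, and the 2 wk mean lay between them in 14 and below both in 6. Of all 16126 genes the sedentary mean lay between in 4882, and a gene picked for a wide gap is more likely to hold another mean within it.

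**Figure D5:**
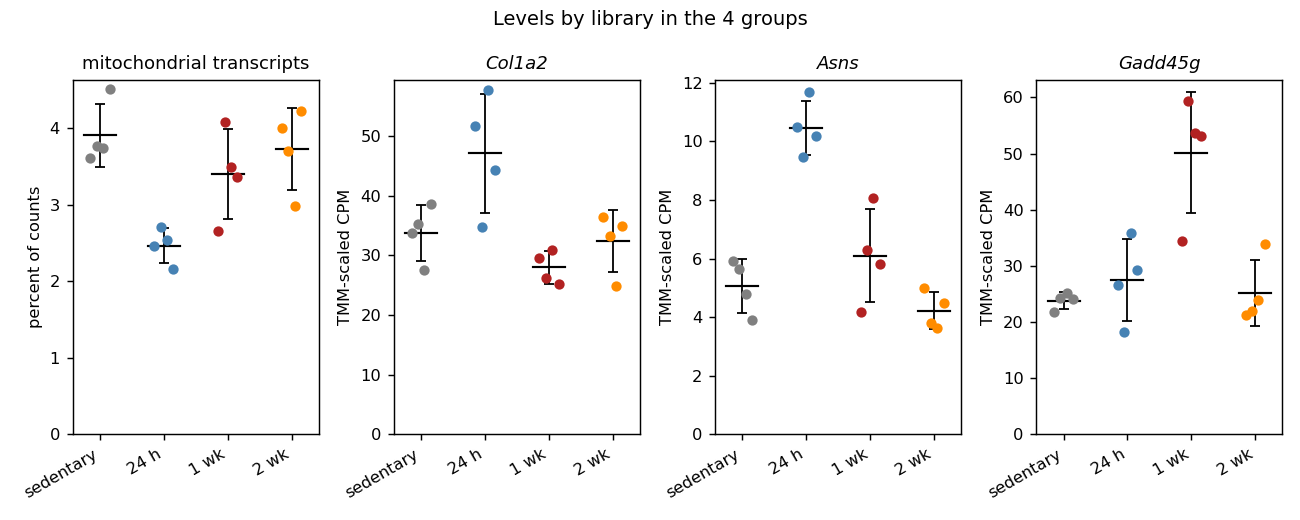
Mitochondrial transcripts as a percent of counts and TMM-scaled CPM of Col1a2, Asns and Gadd45g in every library of the 4 groups in time order, with lines and bars for the mean and SD of 4 libraries. At 24 h the mitochondrial share is 2.16% to 2.71%, while Gadd45g is highest at 1 wk, at 34.5 to 59.4 CPM.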

How the data were processed

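Polyadenylated RNA of frozen kidney cortex pieces was sequenced from strand-marked libraries, per the labels' protocols. The authors deposited raw counts, given for each gene as whole numbers and not normalized. FastQC 0.10.1 and HTSeq 0.10.0 and the mouse build GRCm38 (mm10) are named in the submitters' processing notes. Neither the aligner nor the gene annotation nor the strand setting of the counting is given in the sources used, so antisense partners, overlapping genes and near-identical copies are uncertain. The deposited table has 55414 genes and 24 count columns, of which 16 were joined to samples by name and 8 that match no sample were not used. Symbols and positions are from GENCODE M21, which names 94.1% of the IDs with 99.4% of the counts.

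Genes were tested with edgeR 4.0.16 (R 4.3.3): filterByExpr by group, TMM, robust quasi-likelihood F-test, all 16 libraries in 1 fit, contrast of 1 wk minus 24 h, Benjamini-Hochberg adjustment over 16126 genes and a threshold of 0.05. CPM are TMM-scaled and log2 CPM use a prior count of 2. After ± stand SDs of CPM and shares, or SEs of log2 fold changes. DESeq2 1.42.0, voom with quality weights (limma 3.58.1), other filters and scalings, the 8 libraries alone, a replicate block and leaving out each library were alternatives. The edgeR, DESeq2 and voom steps were tested on simulated counts. The share of mitochondrial counts was compared by an exact permutation test. Named genes are the 20 of smallest p whose mean log2 CPM was 0 or more, clone names left out, up to 4 members of smallest p in each described list, and a fixed set of 16 genes. The comparison, the 41 gene lists and the naming rule were chosen with earlier results of these data known, and some lists share members. Of the 172 genes the rule names, 94 are discussed, chosen after their values were seen.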

Additional observations from a re-analysis of the deposited data

Results flagged for a closer look

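In 196 sets of 4 libraries (97 genes with printed values or singled out and the mitochondrial share, in 1 wk and in 24 h), a library that stood far from the other 3 of its group was found in 9, and chance flags about 1 in 20 such sets. Among 1 wk libraries, replicate 3 was far above the others for 5 genes. It had 10.7 CPM of Havcr1 where the others had 2.15 to 3.30, 117 CPM of H2-Eb1 where the others had 67.1 to 73.6, and 93.9 CPM of H2-Aa where the others had 59.4 to 62.4. It also had 2.45 CPM of Jchain where the others had 0.464 to 0.742, and 20.3 CPM of Igkc where the others had 2.58 to 5.06. Replicate 4 of the 1 wk group had 135 CPM of Slc9a3, with 73.8 to 82.7 CPM in the others. Among 24 h libraries, replicate 1 had 8.03 CPM of Jchain, with 1.29 to 1.69 CPM in the others. Replicate 3 of the 24 h group had 191 CPM of Creld2, with 69.2 to 87.2 CPM in the others, and replicate 4 had 25.9 CPM of Havcr1, with 3.42 to 6.97 CPM in the others. What sets these libraries apart was not tested.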

How the results depend on the processing

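No gene was called by edgeR with DESeq2's size factors, without a low-count filter (28926 genes), with at least 1 CPM in 4 libraries (13271 genes), or with the 8 libraries alone (15572 genes), nor by voom, where 1551 genes had an unadjusted p under 0.05. DESeq2 called 59. Leaving out single libraries gave 0 to 2 called genes, with Col1a2 among the 2 called without 24 h replicate 2, and 662 to 1571 genes at an unadjusted p under 0.05, fewest without 24 h replicate 3. Of the genes at that p, 66.0% were lower at 1 wk, against 57.1% with voom and 54.7% without 1 wk replicate 4. The deviations of same-numbered libraries correlated at 0.054, -0.014, 0.27 and -0.040, and a fit with the replicate number as a block called 0 genes, with 1008 at an unadjusted p under 0.05. The mitochondrial share at 1 wk minus 24 h was 0.704 to 1.18 percentage points with 1 library left out, at exact p of 0.0286 to 0.0857, and 0.936 over tested genes only. Of the 97 genes whose values are discussed, 94 of them from the naming rule and all chosen after values were seen, 2 changed direction. Vldlr was at -0.00712 by voom and ran from -0.044 without 1 wk replicate 4 to 0.14 without 1 wk replicate 3. Dnajc3 ran from -0.15 without 1 wk replicate 4 to 0.018 without 24 h replicate 3, and was at 0.00527 without 1 wk replicate 3. Of the 78 further genes that the rule names, 16 changed direction in at least 1 alternative. Of 40 list medians 12 changed sign in at least 1. By DESeq2 24 of the 97 passed the threshold. The cause was not tested. With 4 libraries a group, genes at a few CPM are the least precise.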

Other observations

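Markers of cells from outside the nephron varied widely between libraries within both groups. The 7 urothelium genes summed to 2.45 to 23.1 CPM at 1 wk and 1.10 to 13 CPM at 24 h. Erythroid markers, mostly globins whose copies share sequence, summed to 379 to 1261 CPM at 1 wk and 478 to 792 CPM at 24 h. That sum is over 7 genes and includes Slc4a1, which is also in the intercalated cell list. The 6 of them that were tested had a median log2 fold change of 0.22, and none had an unadjusted p under 0.05. Without 1 wk replicate 3 the erythroid median was -0.17 and all 6 genes were lower. Adrenal cortex markers summed to 0.323 to 3.99 CPM at 1 wk and 0.196 to 0.471 CPM at 24 h. Adipocyte markers summed to 28.1 to 44.7 CPM at 1 wk and 34.1 to 58.2 CPM at 24 h, and neutrophil markers to 1.47 to 3.21 CPM at 1 wk and 1.09 to 3.37 CPM at 24 h.

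Of 18 circadian clock genes, 7 were higher and 11 lower at 1 wk, with a median of -0.024 and none under an unadjusted p of 0.05. Arntl, the core activator of the clock, had 2.44, 3.73, 4.34 and 3.95 CPM in 1 wk libraries, against 3.38, 2.23, 6.73 and 6.04 CPM in 24 h libraries. Per1, a repressor that also answers to glucocorticoids, had 19.3, 10.9, 9.70 and 14.9 CPM in 1 wk libraries, against 19.6, 12.2, 16.9 and 14 CPM in 24 h libraries. Both overlapped throughout. Among 15 glucocorticoid response genes 11 were lower at 1 wk with a median of -0.16, and among 16 cell cycle genes 9 were lower with a median of -0.046. The hypoxia list had a median of -0.011 over 15 genes. The clock, cell cycle and hypoxia medians changed sign with single libraries left out, and the glucocorticoid median was -0.038 without 24 h replicate 3.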
